A study of Mus musculus with 42 samples.

Results

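Ryanodine receptors and the proteins that load and buffer the endoplasmic calcium store were followed in hand-sorted pools of mouse cerebellar neurons: the 3 receptor genes Ryr1, Ryr2 and Ryr3, the store buffer gene Casq2, and the pump genes Atp2a2 and Atp2a3. The members were all probe sets that the annotation of the Affymetrix mouse array assigns to these symbols, 16 of 45101 probe sets and 6 of 18194 genes. Ryr1 has 2 probe sets, Ryr2 has 2, Ryr3 has 3, Casq2 has 1, Atp2a2 has 6 and Atp2a3 has 2. Of the 16, 15 exceeded 5 on the log2 scale on 3 or more arrays and were tested. The exception was 1443551_at of Atp2a2, which lay between 4.11 and 4.92 on every array.

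Ryanodine receptors are large tetrameric channels of the endoplasmic and sarcoplasmic reticulum that let stored calcium into the cytosol, opened by cytosolic calcium or, in skeletal muscle, by the voltage sensor of the plasma membrane. Calsequestrin binds calcium inside the store near the channels, and the SERCA pumps (Atp2a genes) return calcium from the cytosol to the store. Purkinje cells, which carry the output of the cerebellar cortex, are known for a large smooth endoplasmic reticulum that reaches into the dendritic spines, whereas stellate and basket cells are the small inhibitory interneurons of the molecular layer that contact them.

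All arrays came from CB6-Tg(Gad1-EGFP)G42Zjh/J mice (G42), labelled male, which express GFP from a Gad67 bac transgene; no other genotype and no treatment group was included. Living cells were taken from cerebellar slices treated with protease type XIV in the presence of AP5, CNQX and TTX, were sorted by hand by their GFP and the size of the soma, and their RNA was amplified in 2 rounds, so a transgene signal and a cell's size, not a molecular marker, define each type. Arrays labelled Purkinje cover postnatal days 3, 7 and 14 (P3, P7 and P14, 3 arrays each) and P21, P28, P35 and P56 (4 arrays each). Arrays labelled Stellate/Basket cover P14 (4), P21 (3), P28 (4), P35 (2) and P56 (2), after 2 deposited columns that equal the mean of other columns of their group were left out. In each pool, fewer cells of a type and less RNA per cell cannot be told apart.

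The labels were set against marker genes. The mean of 7 Purkinje cell markers lay between 13.1 and 13.5 (log2) in the 19 Purkinje arrays from P14 on, but between 6.27 and 10.6 in the 6 arrays labelled Purkinje P3 or P7. In those 6 arrays the mean of 6 stellate and basket cell markers was 8.72 to 10.3, against 5.59 to 6.47 in the later Purkinje arrays, and the mean of 5 markers of Golgi and unipolar brush cells was 8.79 to 9.27, against 5.99 to 6.66. Calb1, the calbindin gene used to mark Purkinje cells, was at 12.02 to 12.6 at P7 but at 4.46 on 1 array at P3. The 2 arrays labelled Stellate/Basket P56 had interneuron marker means of 5.73 and 6.39, against 9.40 to 10.9 in the 13 Stellate/Basket arrays from P14 to P35, and Purkinje marker means of 13.2 and 12.1. The marker means thus bore out the label of the 6 early Purkinje arrays only in part, and those of the Stellate/Basket arrays at P56 not at all. For the 6 genes, cell type differences are therefore also given without P56, and changes in Purkinje arrays also from P14 on, without P3 and P7. Cell type differences of their other probe sets and of related genes over the shared ages include P56. The rise from P7 to P14 rests on the early arrays and has no value without them. Markers of astrocytes and Bergmann glia had a mean of 6.50 to 10.3 in the Stellate/Basket arrays from P14 to P35 and of 10.4 and 10.8 at P56, against 6.01 to 7.96 in Purkinje arrays from P14. Xist, expressed from the inactive X chromosome of females, was at 10.7 to 12.9 on 27 arrays and at 6.38 to 7.68 on 13, although the labels give 1 sex. At P14 all 4 Stellate/Basket arrays were high in Xist and all 3 Purkinje arrays low. In a fit with Xist as a covariate the cell type differences and the Purkinje changes kept their calls, and 2 other calls changed: Ryr2 between P14 and P56 in Stellate/Basket arrays, which became called, and the Ryr1 difference between the cell types in their change over these ages, which was no longer called. The part of the cell type markers in the results was not tested.

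In the annotation of GRCm38.p6, Ryr1 lies on chromosome 7 (29003340 to 29125179), Ryr2 on chromosome 13 (11553099 to 12106945), Ryr3 on chromosome 2 (112631354 to 113217405), Casq2 on chromosome 3 (102086415 to 102146514), Atp2a2 on chromosome 5 (122453513 to 122502225) and Atp2a3 on chromosome 11 (72961169 to 72993043). The 250 bases before a RefSeq start are shown for Ryr1, Casq2 and Atp2a3, which moved together on these arrays, and for Ryr2, which did not move with them. They are given on the strand of the gene, 5′ to 3′, at chr7:29125152-29125401 (minus), chr3:102086165-102086414 (plus), chr11:72960919-72961168 (plus) and chr13:12106946-12107195 (minus). The windows of Casq2, Atp2a3 and Ryr2 adjoin the gene spans given above. That of Ryr1 lies before a start inside its span and overlaps the span from 29125152 to 29125179. Capitals mark matches on either strand to the E-box CANNTG, the nuclear receptor half-site AGGTCA, the GC box GGGCGG or the MEF2-type sequence CTANNNNTAG.
Ryr1: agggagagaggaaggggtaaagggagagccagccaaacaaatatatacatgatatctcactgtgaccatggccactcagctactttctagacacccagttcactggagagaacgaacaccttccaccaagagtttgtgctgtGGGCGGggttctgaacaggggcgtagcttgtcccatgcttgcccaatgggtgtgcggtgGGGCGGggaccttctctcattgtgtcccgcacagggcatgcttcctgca
Casq2: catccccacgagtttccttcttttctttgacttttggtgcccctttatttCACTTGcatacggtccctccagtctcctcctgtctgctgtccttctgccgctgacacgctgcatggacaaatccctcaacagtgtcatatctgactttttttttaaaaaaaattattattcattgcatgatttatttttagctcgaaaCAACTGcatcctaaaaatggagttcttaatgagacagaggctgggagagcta
Atp2a3: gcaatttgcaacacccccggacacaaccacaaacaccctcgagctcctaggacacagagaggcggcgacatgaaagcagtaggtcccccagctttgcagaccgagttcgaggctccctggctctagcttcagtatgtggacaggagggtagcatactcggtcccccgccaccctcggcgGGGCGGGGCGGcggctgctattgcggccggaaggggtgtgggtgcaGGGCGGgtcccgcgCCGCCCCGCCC
Ryr2: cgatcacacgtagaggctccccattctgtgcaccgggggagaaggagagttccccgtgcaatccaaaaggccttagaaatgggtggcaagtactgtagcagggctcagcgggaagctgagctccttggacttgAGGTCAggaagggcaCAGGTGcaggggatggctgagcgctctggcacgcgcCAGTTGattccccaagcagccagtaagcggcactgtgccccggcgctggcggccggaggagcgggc
The windows differed in composition, with 54.8% G and C for Ryr1, 41.6% for Casq2, 66.8% for Atp2a3 and 63.2% for Ryr2, against a median of 52.4% over 32851 RefSeq windows of this length. Ryr1 held 2 GC boxes and Atp2a3 held 5, some of which overlap, while 32.7% of all windows held at least 1. Casq2 held 2 E-boxes (CACTTG, 200 bases before the start, and CAACTG, 52 bases before it), as did Ryr2 (CAGGTG and CAGTTG), and 66.2% of windows held at least 1. The only half-site was in Ryr2, 117 bases before the start, and 14% of windows held one. None of the 4 windows held the MEF2-type sequence, which 3.2% of windows did. These letters are a description of the windows, and no one of the 4 motifs was shared by Ryr1, Casq2 and Atp2a3.

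From P14 on, Ryr1, Casq2, Atp2a3 and Atp2a2 were high in Purkinje arrays and lower in Stellate/Basket arrays. Within arrays labelled Purkinje all 4 were lower at P3 and P7 than at P14, although Atp2a2 was bright at every age. Averaged over the 5 shared ages, P56 included, the difference was 19.8-fold for Casq2, 18.2-fold for Ryr1, 10.3-fold for Atp2a3 and 3.05-fold for Atp2a2. On the log2 scale and without P56 it was 4.69, 4.62, 3.78 and 1.67, in the same order. Ryr2 went the other way between P7 and P14 in Purkinje arrays, falling 3.58-fold in its probe set with the highest mean. Its other probe set did not show this fall, and its change from P3 to P56 was not called. Ryr3 showed no called change in its probe set with the highest mean. Values are the authors' log2 values, each gene is read from its brightest probe set on average, and a gene was called when its limma adjusted p was under 0.05 and its log2 difference at least 1 in size. Without detection calls, folds against the low levels of Ryr1 and Casq2 are uncertain.

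**Figure D1:**
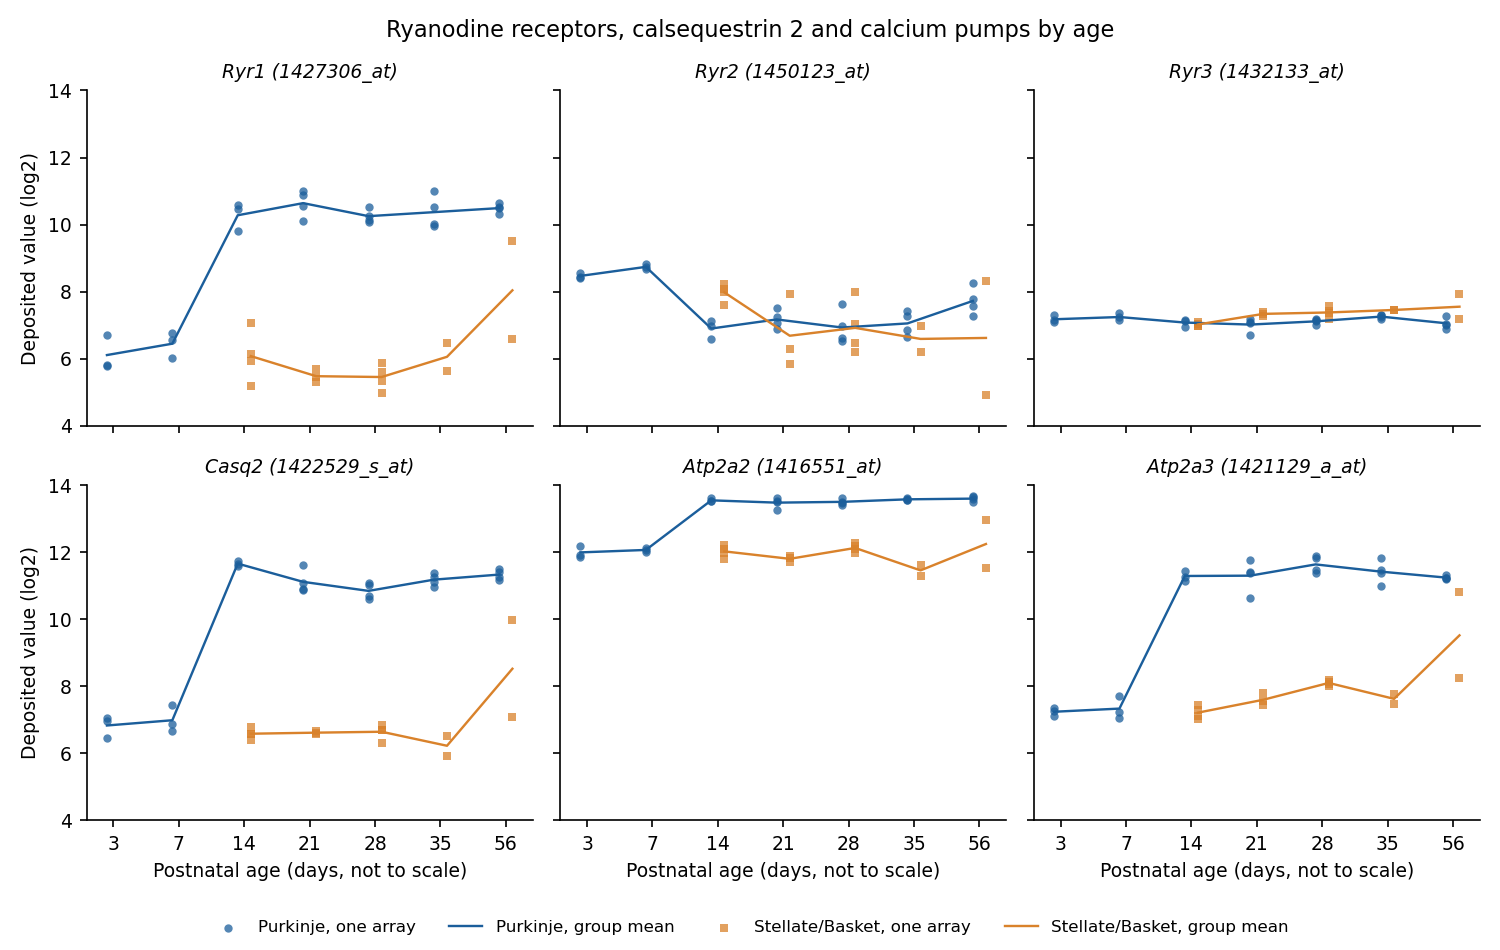
Deposited log2 values of the 6 genes against postnatal age (equal spacing, not to scale), with 1 point per array and lines through the group means, for Purkinje (circles) and Stellate/Basket (squares) arrays. Ryr1, Casq2, Atp2a2 and Atp2a3 rise between P7 and P14 in Purkinje arrays and lie in the higher range at every later age, while the 2 Stellate/Basket arrays at P56 lie far apart.

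Ryr1 encodes the receptor best known from skeletal muscle, where it releases the calcium for contraction. Its probe set 1427306_at read 6.71, 5.81 and 5.79 at P3 and 6.56, 6.02 and 6.75 at P7 in Purkinje arrays, and 10.59, 9.79 and 10.45 at P14. The 16 Purkinje arrays of the 4 later ages continued at this level, with 10.11, 10.55, 11.01 and 10.88 at P21, 10.26, 10.53, 10.13 and 10.08 at P28, 10.003, 9.94, 11.01 and 10.52 at P35, and 10.64, 10.49, 10.31 and 10.53 at P56. All 19 arrays from P14 on were above all 6 earlier ones, without overlap. The Stellate/Basket arrays read 6.12, 7.05, 5.94 and 5.18 at P14, 5.44, 5.68 and 5.30 at P21, 5.60, 5.88, 4.98 and 5.34 at P28, and 6.48 and 5.62 at P35. The 13 arrays up to P35 were all below every Purkinje array from P14 on, while the 2 arrays at P56 were far apart, at 9.50 and 6.57. The step from P7 to P14 was 3.83 ± 0.46 (SE) on the log2 scale, with a limma adjusted p of 6.9e-08. The cell type difference over the shared ages was 4.19 ± 0.20 (SE; limma adjusted p = 6.2e-18).

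The second Ryr1 probe set, 1457347_at, gave the same direction, with a cell type difference of 3.53 ± 0.29 (SE) and a step of 3.74 ± 0.67 (SE) from P7 to P14. It was less even among the later Purkinje arrays. At P21 it read 7.94 on 1 array and 11.04, 10.86 and 11.26 on the others, and at P28 it read 8.75, 8.10, 9.22 and 8.94, where 1427306_at read 10.08 to 10.53. The low array at P21 was also the lowest of the 4 in 1427306_at, at 10.11 against 10.55 to 11.01.

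Casq2 encodes calsequestrin 2, the high-capacity calcium buffer of the store described first in cardiac muscle. Its only probe set, 1422529_s_at, carries the array maker's suffix for probes that can match several transcripts, and the annotation gives it the symbol Casq2 alone. Purkinje arrays read 7.04, 6.47 and 6.98 at P3, 6.66, 6.86 and 7.44 at P7, and 11.65, 11.60 and 11.74 at P14. From P21 to P56 the 16 arrays lay between 10.60 and 11.61, so that P14 held the highest group mean, 11.66 ± 0.07 (SD, n = 3), and did not overlap with P56, at 11.34 ± 0.14 (SD, n = 4). The 13 Stellate/Basket arrays up to P35 lay between 5.93 and 6.85, overlapping with the Purkinje arrays of P3 and P7. At P56 the Stellate/Basket arrays read 9.97 and 7.08. The rise from P7 to P14 was 4.68 ± 0.36 (SE; limma adjusted p = 6.4e-12), and the cell type difference over the shared ages was 4.31 ± 0.16 (SE; limma adjusted p = 6.5e-21).

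Atp2a3 encodes SERCA3, a pump of lower calcium affinity than SERCA2. Its probe set 1421129_a_at read 7.12, 7.34 and 7.26 at P3, 7.05, 7.71 and 7.24 at P7, and 11.45, 11.15 and 11.27 at P14 in Purkinje arrays. The later Purkinje arrays lay between 10.65 and 11.88, with no overlap with P3 and P7. In Stellate/Basket arrays it read 7.43, 7.02, 7.29 and 7.12 at P14, 7.56, 7.44 and 7.79 at P21, 8.20, 8.07, 7.9996 and 8.13 at P28, and 7.48 and 7.77 at P35. The P28 arrays were thus the highest of these 13, and at P56 the 2 arrays read 10.80 and 8.24. The first of these is within the range of the Purkinje arrays, and it is the only representing value of Ryr1, Casq2, Atp2a2 or Atp2a3 at which a Stellate/Basket array overlapped with the Purkinje arrays from P14. The rise from P7 to P14 was 3.96 ± 0.33 (SE; limma adjusted p = 5.3e-11), and the cell type difference was 3.37 ± 0.15 (SE; limma adjusted p = 5.2e-19).

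Atp2a2 encodes SERCA2, the pump that most cells use to fill the store. Its probe set 1416551_at was bright in every group and moved least of the 4 genes. Purkinje arrays read 12.20, 11.93 and 11.87 at P3, 12.08, 12.01 and 12.12 at P7, and 13.61, 13.52 and 13.52 at P14, and the later ones lay between 13.27 and 13.67. The Stellate/Basket arrays up to P35 lay between 11.30 and 12.27, on both sides of the early Purkinje values, and at P56 they read 12.97 and 11.52. The groups from P14 on did not overlap between the cell types, and the spread within most groups was under 0.2 (SD). The rise from P7 to P14 was 1.48 ± 0.18 (SE; limma adjusted p = 1.6e-07), and the cell type difference was 1.61 ± 0.08 (SE; limma adjusted p = 2.2e-17).

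Ryr2 encodes the receptor best known from heart muscle. In Purkinje arrays 1450123_at read 8.56, 8.44 and 8.40 at P3 and 8.67, 8.82 and 8.72 at P7, and then 7.13, 6.58 and 6.98 at P14. No later Purkinje array reached the early range: they lay between 6.51 and 8.25, with P56 the highest of the later groups at 7.72 ± 0.41 (SD, n = 4). The fall from P7 to P14 was -1.84 ± 0.52 (SE; limma adjusted p = 9.6e-03). From P3 to P56 the difference was -0.75 ± 0.49 (SE), under the minimum size for a call, and did not pass (limma adjusted p = 0.25). That error also holds the spread of the Stellate/Basket arrays at P56 (SD 2.41), against 0.08 in Purkinje arrays at P3 and 0.41 at P56. Stellate/Basket arrays read 8.23, 8.07, 8.0 and 7.59 at P14, and later values scattered widely, such as 5.83, 7.93 and 6.29 at P21 and 8.32 and 4.91 at P56. The cell types overlapped, and their difference over the shared ages was 0.20 (95% interval -0.27 to 0.66; limma adjusted p = 0.48). Its second probe set, 1421126_at, was low on all 40 arrays, between 5.15 and 6.07, and did not show the fall, with a change of 0.12 from P7 to P14.

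Ryr3 encodes the remaining receptor, found at low levels in many tissues and in parts of the brain. 1432133_at stayed between 6.71 and 7.35 in all 25 Purkinje arrays and between 6.97 and 7.92 in all Stellate/Basket arrays. The cell type difference was -0.24 ± 0.06 (SE; limma adjusted p = 6.2e-04), under the minimum size for a call. The second probe set, 1452533_at, differed by 0.10 (95% interval from -0.02 to 0.22), and its arrays overlapped throughout. The probe set 1427427_at behaved otherwise. It read 7.04, 6.68 and 6.98 at P3 and 8.77, 5.24 and 6.71 at P7, and all 19 later Purkinje arrays lay between 4.44 and 4.84. Stellate/Basket arrays read 4.93, 5.26, 5.03 and 5.42 at P14 and 4.41 to 5.27 afterwards. The fall from P7 to P14 was -2.27 ± 0.40 (SE; limma adjusted p = 5.2e-05), and it was not called in a fit of the compared groups alone (limma adjusted p = 0.10). The probe sets of Ryr3 therefore disagree on whether the gene changed with age. The early arrays in which 1427427_at was above its later range also carried Golgi and interneuron markers. Stellate/Basket arrays at P14, with interneuron marker means of 10.5 to 10.9, read 4.93 to 5.42. The part of other cell types in these values was not tested.

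Of the 6 steps between neighbouring ages in Purkinje arrays, that from P7 to P14 alone held called changes of these genes. Between P7 and P14, 4 of the 6 genes rose and Ryr2 fell, where 12.7% of the 17478 genes tested were called in either direction (5.79% higher and 6.95% lower). This step and the cell type difference at P14 share the Purkinje P14 arrays. The median change of the 6 was 2.66 on the log2 scale, against 0.07 over all genes tested. Between P3 and P7 none was called, where 0.0515% of genes were, and none had an unadjusted p under 0.05; the differences ran from 0.07 for Ryr3 to 0.34 for Ryr1. Over the 4 steps after P14, none of the 24 values was called in limma and none had an unadjusted p under 0.05. They ran from -0.54 for Casq2 to 0.67 for Ryr2, and at these steps 0.0629%, 0.618%, 0.383% and 2.85% of all genes were called, in order of age.

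**Figure D2:**
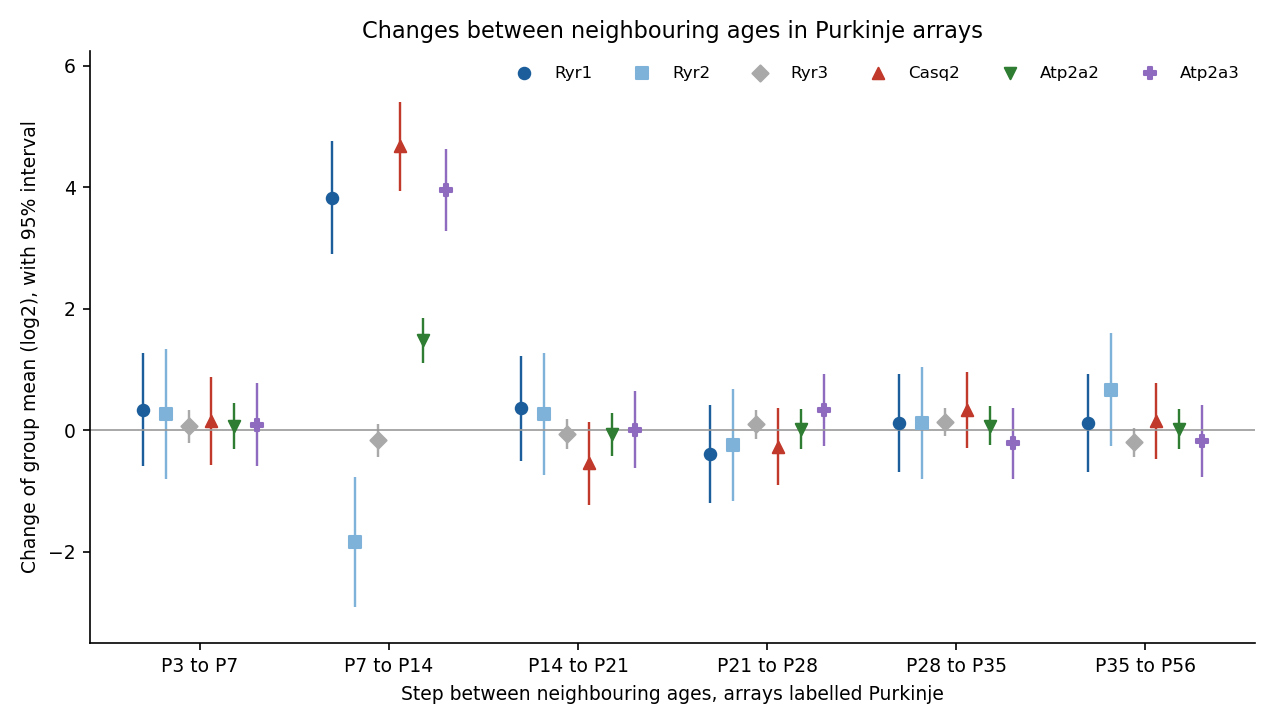
Log2 change of each gene between neighbouring ages in arrays labelled Purkinje, with 95% intervals from limma, for the 6 steps from P3 to P56. From P7 to P14, Casq2, Atp2a3, Ryr1 and Atp2a2 lie above 0 and Ryr2 lies below 0, and the other steps lie between -0.54 and 0.67.

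From P14 to P56 the intervals of the change in Purkinje arrays were -0.66 to 1.08 for Ryr1, -0.18 to 1.83 for Ryr2, -0.27 to 0.23 for Ryr3, -1.01 to 0.35 for Casq2, -0.30 to 0.40 for Atp2a2 and -0.68 to 0.59 for Atp2a3. None of the 6 was called, where 1.69% of genes were, and none had an unadjusted p under 0.05. An F test over the ages from P14 gave limma adjusted p-values of 0.32 to 0.96 for the 6 genes, and 28.5% of all genes passed it. Of the other probe sets, 1450124_a_at of Atp2a3 (limma adjusted p = 0.0018) and 1427251_at and 1437797_at of Atp2a2 (0.039 and 0.048) passed, where 28.7% of probe sets did; 1450124_a_at read 7.31 to 7.34 at P14, 7.83 to 8.06 at P28 and 6.88 to 7.48 at P56. Over all 7 ages 5 of the 6 genes passed, where 56.3% of genes did, Ryr3 being the exception (limma adjusted p = 0.39). The intervals and F tests share 1 error estimate per gene over all 12 groups, including the Stellate/Basket arrays at P56. For Casq2 the SD was 2.04 among those arrays and 0.07 to 0.35 in the Purkinje groups from P14 on. Its Purkinje arrays at P14 (11.60 to 11.74) did not overlap with those at P28 (10.60 to 11.09). A failed test here thus does not show that a gene stayed level. From P3 to P56, 4 of 6 genes rose, where 8.71% of genes were called higher: Casq2 by 4.50 ± 0.33, Ryr1 by 4.39 ± 0.43, Atp2a3 by 4.003 ± 0.31 and Atp2a2 by 1.60 ± 0.17 (log2, SE). Of the 6 representing probe sets, 5 separated the 19 arrays from P14 on from the 6 earlier ones, all but that of Ryr3, where 14% of genes did.

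The early Purkinje arrays were also compared with the Stellate/Basket arrays of P14, a comparison added after the values were seen. At P3 the differences ran from -0.03 for Atp2a2 to 0.49 for Ryr2, and at P7 from 0.04 for Atp2a2 to 0.76 for Ryr2. None of the 6 genes was called and none had an unadjusted p under 0.05, where 4.03% and 3.46% of genes were called. The 1 exception among the probe sets was 1427427_at of Ryr3, which was higher by 1.74 at P3 and by 1.75 at P7, the latter 0.81 and not called without Purkinje P7 replicate 1. At P7 the Purkinje gene Pcp2 was at 10.4 to 10.9, against 8.49 to 10.7 in Stellate/Basket arrays at P14 and 11.8 to 12.2 at P28. The part of the lower Purkinje marker levels of the early arrays in these values was not tested.

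Between the cell types, 4 of the 6 genes were called higher in Purkinje arrays over the mean of the shared ages, where 6.37% of genes were, and none lower. The median difference of the 6 was 2.49 on the log2 scale, against 0.02 over all genes tested. The same 4 were called at each age: at P14, P21, P28, P35 and P56, where 6.59%, 6.81%, 8.36%, 5.86% and 14.8% of genes were called higher, and 2.24% of genes were called higher at all 5. Ryr1 differed by 4.20, 5.17, 4.80 and 4.32 from P14 to P35 and by 2.45 at P56. Casq2 differed by 5.08, 4.50, 4.20 and 4.96 and then by 2.81. For Atp2a3 the values were 4.08, 3.70, 3.54 and 3.80, and then 1.72, while Atp2a2 differed by 1.52, 1.68, 1.38 and 2.12, and then by 1.35. Over P14 to P35, without P56, the mean differences were 4.62 for Ryr1, 4.69 for Casq2, 3.78 for Atp2a3 and 1.67 for Atp2a2, all called, and -0.030 for Ryr2 and -0.18 for Ryr3, not called. In Ryr1, Casq2 and Atp2a3 the difference at P56 was more than 1 log2 unit below that at any other shared age. Ryr2 was -1.08 at P14 (limma adjusted p = 0.12) and between 0.01 and 1.10 at the other ages, and was called at none. It was called at P14 at the same size in a fit of the compared groups alone (limma adjusted p = 0.0023) and without either Stellate/Basket P56 array (limma adjusted p = 0.028), and at P56 without Stellate/Basket P56 replicate 1, at 2.81. All 4 genes kept the 15 Purkinje and 13 Stellate/Basket arrays of P14 to P35 apart, where 8.26% of genes did, and Ryr1, Casq2 and Atp2a2 did so with P56 included, where 2.92% did.

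**Figure D3:**
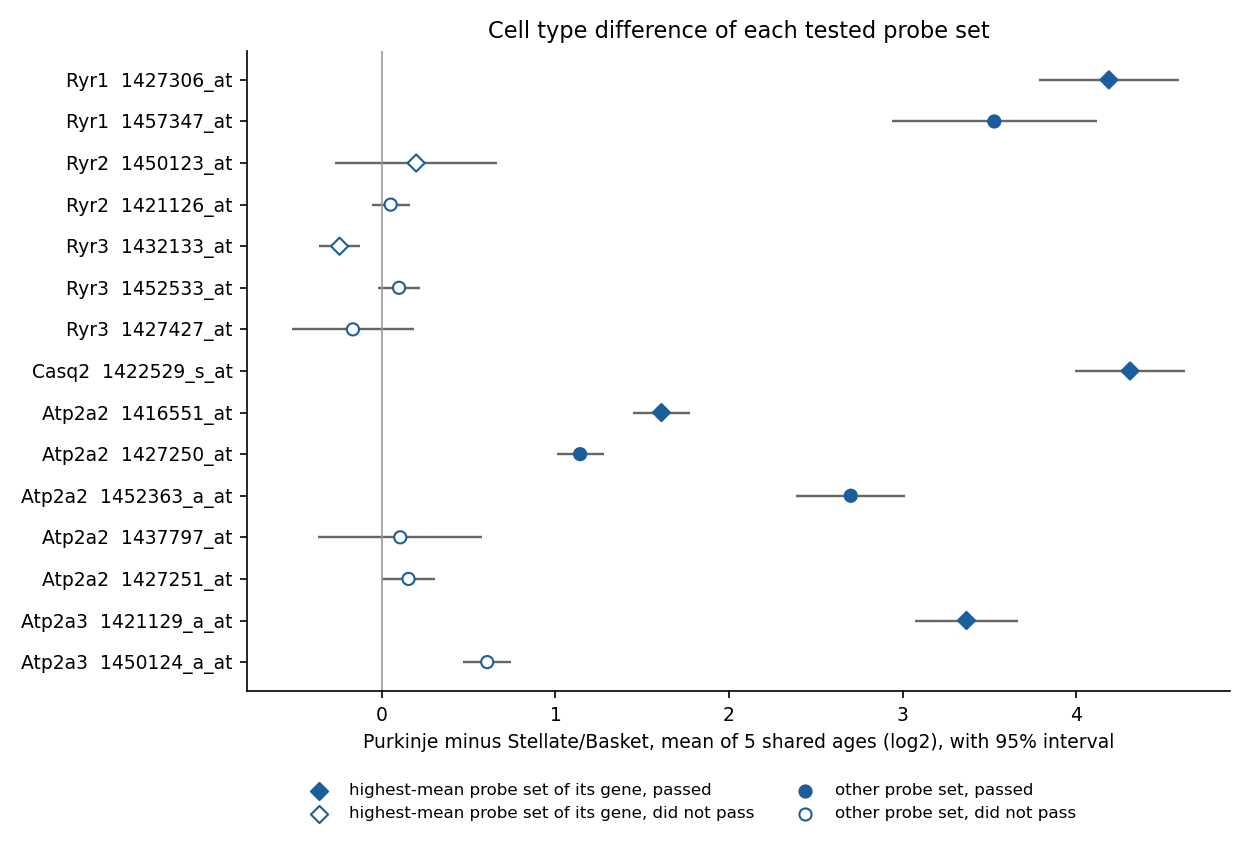
Purkinje minus Stellate/Basket difference in log2, averaged over the 5 shared ages, with 95% intervals from limma, for the 15 tested probe sets. Filled symbols passed the adjusted p and the minimum difference, and diamonds mark the probe set with the highest mean of each gene. 7 of 15 passed, and probe sets of 1 gene differ, as in Atp2a2 and Atp2a3.

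Probe sets of a gene did not all give the same picture. Of the 15 tested, 7 were called higher in Purkinje arrays, where 10.3% of all probe sets were called in either direction. They were both of Ryr1, the 1 of Casq2, 1 of Atp2a3 and 3 of Atp2a2. For Atp2a2, 1452363_a_at differed by 2.70 ± 0.15, 1416551_at by 1.61 ± 0.08 and 1427250_at by 1.14 ± 0.07 (SE), while 1437797_at at 0.11 ± 0.23 and 1427251_at at 0.15 ± 0.08 did not pass. 1452363_a_at also rose most from P7 to P14, by 2.55 ± 0.35 (SE), whereas 1427250_at changed by 0.99 ± 0.15 (SE), just under the minimum size. For Atp2a3, 1450124_a_at read 6.75 to 6.87 at P3 and P7 and 6.88 to 8.21 in the later Purkinje arrays, and 6.60 to 7.02 in Stellate/Basket arrays up to P35. Its cell type difference of 0.61 ± 0.07 (SE; limma adjusted p = 4.4e-09) had the direction of 1421129_a_at and a smaller size. Which transcripts each probe set reads was not analysed here.

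Within Stellate/Basket arrays no step up to P35 was called. Over the 3 steps from P14 to P35 none of the 18 values was called in limma, 3 had an unadjusted p under 0.05, and they ran from -1.29 for Ryr2 to 0.60 for Ryr1. At these steps 1.77%, 1.01% and 1.34% of all genes were called. The Ryr2 step from P14 to P21, at -1.29, was called without either Stellate/Basket P56 array (limma adjusted p = 0.033), and at -1.92 without Stellate/Basket P21 replicate 2 (limma adjusted p = 0.030). From P35 to P56, 3 of 6 genes were called higher, where 4.57% of genes were: Casq2 by 2.30 ± 0.44, Ryr1 by 1.98 ± 0.56 and Atp2a3 by 1.90 ± 0.41 (SE). In a fit of the compared groups alone none of the 3 was called (limma adjusted p of 0.52 to 0.59). Without Stellate/Basket P56 replicate 1 the values of the 3 were 0.86, 0.52 and 0.61, under the minimum size for a call, and Ryr2 was at -1.68. Without replicate 3 Ryr2 was at 1.74 and Atp2a2 at 1.51. With 1 array left out, the 3 ran up to 3.74 for Casq2, 3.45 for Ryr1 and 3.18 for Atp2a3. From P14 to P56 the same 3 were called, where 6.47% of genes were called higher, with Atp2a3 at 2.31, Ryr1 at 1.96 and Casq2 at 1.94. These values rest on Stellate/Basket P56 replicate 1, with a Purkinje marker mean of 13.2. Without it the P14 to P56 change was 0.50 for Ryr1 and 0.50 for Casq2, neither called, and 1.03 for Atp2a3, which was still called, and Ryr2 fell by 3.07 and was then called (limma adjusted p = 3.1e-05). With P35 as the last age the change was -0.02 for Ryr1, -0.36 for Casq2 and 0.41 for Atp2a3, none called. In an F test over all Stellate/Basket ages, P56 included, 5 of the 6 genes passed, where 40.5% of genes did. The limma adjusted p-values ran from 8.3e-05 for Atp2a3 to 0.085 for Ryr2, the exception.

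The cell types differed in their change from P14 to P56 for 4 of the 6 genes, where 20.1% of genes did. The Purkinje change minus the Stellate/Basket change was -2.36 for Atp2a3, -2.27 for Casq2, -1.75 for Ryr1 and 2.18 for Ryr2. Without Stellate/Basket P56 replicate 1 the values were -1.08, -0.82 and -0.28 for the first 3, the last 2 not called, and without replicate 3 the value for Ryr2 was 0.48 and not called. The Ryr1 call held under 7 of 14 alternatives and the Ryr2 call under 9 of 14, while those of Casq2 and Atp2a3 held under 13 each. At P56 alone, leaving out replicate 3 brought the cell type difference to 0.99 for Ryr1, 0.63 for Atp2a2 and 0.44 for Atp2a3, none called, while Casq2 remained called at 1.37. In a fit of the compared groups alone Casq2 was the 1 gene called at P56, with limma adjusted p-values of 0.060 for Ryr1, 0.053 for Atp2a2 and 0.10 for Atp2a3. The second Ryr1 probe set, 1457347_at, differed by 1.49 at P56 and was not called (limma adjusted p = 0.086).

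**Figure D4:**
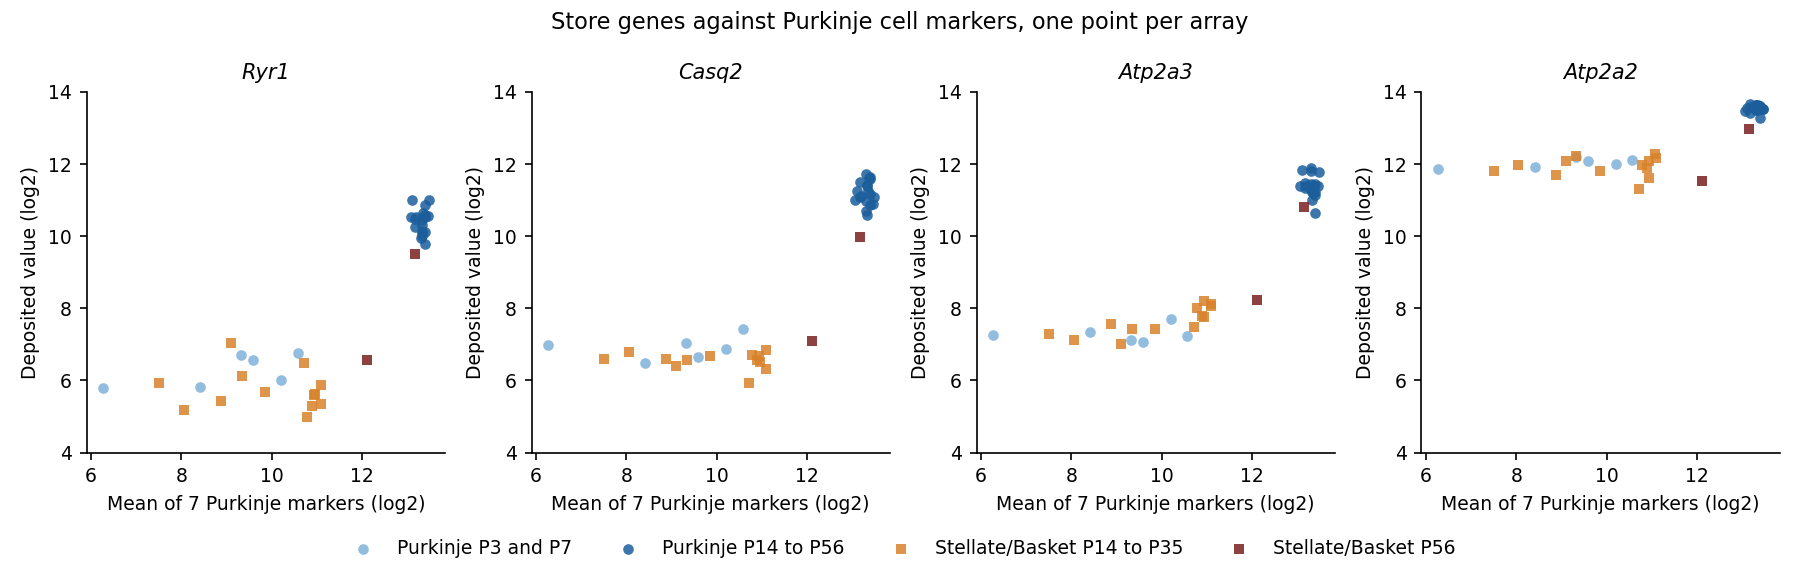
Deposited log2 value of Ryr1, Casq2, Atp2a3 and Atp2a2 against the mean log2 value of 7 Purkinje cell markers, 1 point per array, coloured by cell type label and age. Purkinje arrays from P14 lie at marker means of 13.1 to 13.5 with high values, and the Stellate/Basket arrays up to P35 reach 11.1 with Ryr1 at no more than 7.05.

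Purkinje transcripts were also read in Stellate/Basket arrays, at higher levels at P28 than at P14, while Ryr1 and Casq2 overlapped between these ages. At P28 the Purkinje marker mean was 10.8 to 11.1 and Pcp2 was at 11.8 to 12.2, against 8.49 to 10.7 for Pcp2 at P14. On the same 4 arrays Ryr1 was at 4.98 to 5.88 and Casq2 at 6.32 to 6.85, against 6.07 ± 0.77 and 6.59 ± 0.17 (SD, n = 4) at P14. Atp2a3, in contrast, was at 7.9996 to 8.20 at P28 and 7.02 to 7.43 at P14, without overlap. The part of Purkinje transcripts in that difference was not tested.

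In order of group mean, the 5 Purkinje groups from P14 on were the 5 highest of the 12 for Ryr1, Casq2, Atp2a2 and Atp2a3, and Stellate/Basket P56 was the sixth in each. For Ryr1 the order began with Purkinje P21, P56, P35, P14 and P28, and each neighbour overlapped with the next. For Casq2 it began with P14, P56, P35, P21 and P28, of which P14 alone did not overlap with its neighbour. Atp2a2 began with P56, P35, P14, P28 and P21, and Atp2a3 with P28, P35, P21, P14 and P56, all overlapping with the next in order. In all 4 genes the fifth group did not overlap with Stellate/Basket P56. Ryr2 had another order, with Purkinje P7 first, P3 second and Stellate/Basket P14 after them, none of these 3 overlapping with another, and from there on all neighbours overlapped. For 1432133_at of Ryr3 the 4 highest groups were Stellate/Basket P56, P35, P28 and P21, and every neighbour in the order overlapped.

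Across the 12 group means, Ryr1, Casq2, Atp2a2 and Atp2a3 correlated with each other at r of 0.95 to 0.99, and Ryr2 with these 4 at -0.12 to -0.37. These points share 1 split of groups and the same arrays, and the values are a description. The 3 genes whose group means were most like those of Ryr1 were Stac, Septin11 and Dym (r = 0.99 each over 12 groups), and Stac encodes an adaptor of a family that binds L-type calcium channels. For Casq2 they were Dagla, which makes the endocannabinoid 2-arachidonoylglycerol, Ppp1r1b and Gabbr1, a subunit of the metabotropic GABA receptor (r = 0.99 each). For Atp2a3 they were Col18a1, Nell1 and Stk17b (r = 0.996, 0.995 and 0.994), and for Atp2a2 Myh10, H2-D1 and Ptprr (r = 0.99 each). The nearest genes of Ryr2 were Snn, Purg and Fryl (r = 0.96, 0.94 and 0.94), and those of Ryr3 were Gstm1, Rhoc and Suclg2 (r = 0.94, 0.94 and 0.93).

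Of a list of other release channels, store proteins and store-operated entry genes, 23 were tested. Over the shared ages 3 were called higher in Purkinje arrays and 1 lower, where 6.37% and 5.13% of genes were, and the median difference was 0.20, against 0.02 over all genes. Hspa5, the chaperone BiP of the endoplasmic reticulum, was higher by 1.45 ± 0.13, and Orai3 and Orai2, channels of store-operated entry, by 1.30 ± 0.11 and 1.04 ± 0.10 (SE). Rcn2, a reticulocalbin of the secretory pathway, was at -2.91 ± 0.27 (SE). The skeletal muscle relatives Casq1 and Atp2a1 differed by -0.05 and 0.17 and were not called, and the mean of 8 muscle markers was 5.54 to 6.66 on all 40 arrays. From P3 to P56, 3 of the 23 rose and 2 fell in Purkinje arrays, where 8.71% and 7.81% of genes did, with Orai3 at 2.01, Sdf4 at 1.34, Rcn2 at -2.53 and Rcn1 at -1.56, and a median of 0.26 against -0.04 over all genes. From P14 to P56, without the early arrays, none of the 23 rose and 1 fell, where 1.3% and 0.389% of genes did.

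Of 23 tested partners that couple or regulate the receptors and pumps, 3 were called higher and 3 lower in Purkinje arrays over the shared ages, where 6.37% and 5.13% of genes were, with a median of -0.13 against 0.02 over all genes. Srl, the sarcalumenin gene of the store lumen, was higher by 2.42 ± 0.11, and Homer3, a scaffold of a family that binds metabotropic glutamate receptors, by 2.17 ± 0.12 (SE). Asph, whose locus also encodes junctin, was higher by 1.30 ± 0.18 (SE), and Cacna1d, an L-type calcium channel subunit, was at -1.96 ± 0.08 (SE). From P3 to P56, 5 rose and 5 fell in Purkinje arrays, where 8.71% and 7.81% of genes did, with a median of -0.06 against -0.04. Homer3 rose by 3.72 ± 0.25 and Srl by 2.31 ± 0.24, while Fkbp1b, the calstabin 2 subunit of the receptors, was at -3.23 ± 0.29, and Jph4, a neuronal junctophilin that tethers the store to the plasma membrane, at -2.49 ± 0.21 (SE). From P14 to P56 none of these partners was called in Purkinje arrays in limma, where 1.69% of genes were.

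**Figure D5:**
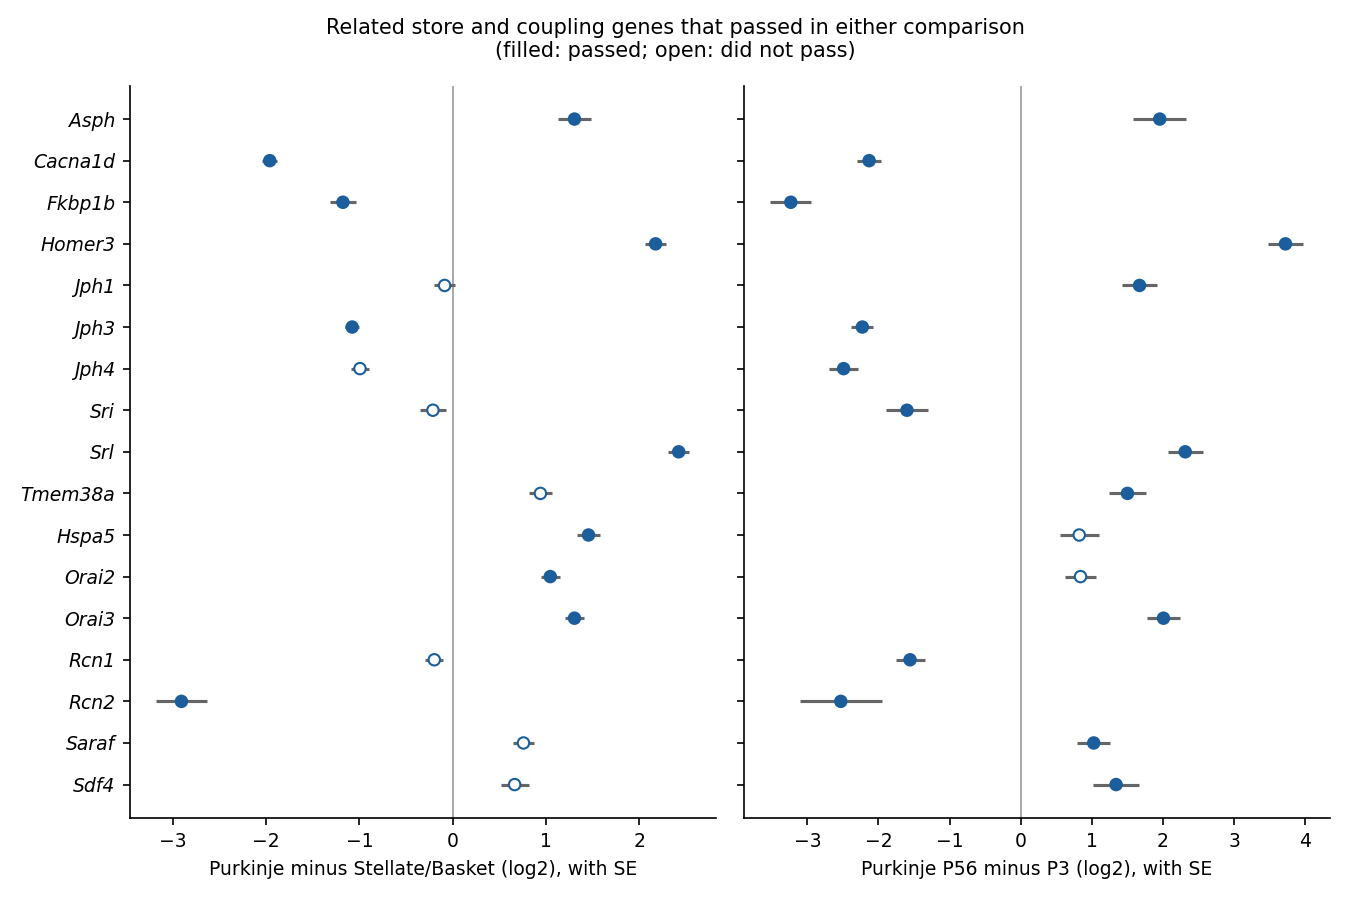
Log2 differences with SE of the 17 related genes called in at least 1 of both comparisons shown, Purkinje minus Stellate/Basket over the shared ages (left) and Purkinje P56 minus P3 (right). Filled points passed and open points did not. Homer3 and Srl are high in both, and Rcn2 and Cacna1d are low in both.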

How the data were processed

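The authors deposited log2 expression values per probe set, made with R 2.9.1 and GCRMA according to the submitters' processing notes, which state neither role nor order. No detection calls were used, and values were not scaled further. 2 of 42 columns equal the mean of 2 others of their group within 1e-08 and were left out. Each gene was read from its brightest probe set on average over 40 arrays, and every probe set was also fitted. Genes above log2 5 in at least 3 arrays were tested (17478 genes; 32918 probe sets). limma 3.58.1 in R 4.3.3 fitted 1 mean per cell type and age over 12 groups, tested on simulated data, with Benjamini-Hochberg adjustment over all genes or probe sets in each comparison. Calls needed an adjusted p under 0.05 and a log2 difference of at least 1. Replicates are as labelled. In the main fit all 12 groups share 1 error estimate per gene, also for changes within Purkinje arrays. The 2 Stellate/Basket arrays at P56 lay far apart (SD of 2.41 for Ryr2, 2.07 for Ryr1 and 2.04 for Casq2). Every SE, interval and p-value of that fit holds this spread, as does the setting with P35 as the last age. The p-values measure the spread between the arrays used, whose number limits the precision. Deviations of same-numbered arrays of both cell types were at most weakly correlated (r of -0.12 to 0.23, over 0.1 in 5 of 14 pairs). Numbers were not used as a block in the main fit, and a fit with a replicate block is given below. The genes named were the members, the 3 genes with the most similar 12 group means to each, and the 4 largest called genes of each related list in the cell type difference and the Purkinje change from P3 to P56. Members, lists and tests were chosen with earlier results of these data known. Promoter windows are from RefSeq (GRCm38.p6) and matched 4 of 6 members by symbol. Plots used matplotlib 3.10.9 under Python 3.11.15.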

Additional observations from a re-analysis of the deposited data

Results flagged for a closer look

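Of 96 sets of 4 arrays (6 groups for each of 16 probe sets), 5 held 1 value set apart from the other 3 by more than Dixon's limit, and chance gives about 1 in 20. The largest gap was in 1457347_at of Ryr1, where Purkinje P21 replicate 1 read 7.94 and the others 10.86 to 11.26. Atp2a3 1450124_a_at read 6.88 on Purkinje P56 replicate 2, against 7.41 to 7.48, and 6.60 on Stellate/Basket P28 replicate 2, against 6.76 to 6.77. Atp2a2 1427251_at read 6.55 on Purkinje P28 replicate 4, against 6.68 to 6.71. Ryr2 1421126_at read 5.52 on Purkinje P35 replicate 4, against 5.40 to 5.42.

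The change from P14 to P56 differed between the cell types by the interaction term in limma for 4 genes, given as the Purkinje minus the Stellate/Basket change: Ryr1 at -1.75 (adjusted p = 0.034), Ryr2 at 2.18 (adjusted p = 0.022), Casq2 at -2.27 (adjusted p = 9.7e-04) and Atp2a3 at -2.36 (adjusted p = 3.2e-04). The Stellate/Basket side of each rests on 2 arrays at P56 whose interneuron marker means were 5.73 and 6.39. The call held under 7 of 14 alternatives for Ryr1 and 9 of 14 for Ryr2.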

How the results depend on the processing

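Cell type differences of Ryr1, Casq2, Atp2a2 and Atp2a3 over the shared ages and their Purkinje rises from P3 to P56 kept direction and call throughout. These were 14 alternative scalings, filters, thresholds, covariates and fits of the same probe set, and fits with each of the 40 arrays left out. So did the 5 Purkinje changes from P7 to P14, under 13 of the alternatives and with each array left out. Not all of these settings could change a call. Dropping the minimum difference could not lose one. Leaving out an array outside the compared groups left the size of a difference as it was and changed only its error. Adding the averaged Stellate/Basket columns did the same for Purkinje changes. Under the 14 alternatives the cell type differences ran from 3.80 to 4.62 for Ryr1, 4.01 to 4.69 for Casq2, 1.43 to 1.67 for Atp2a2 and 3.09 to 3.78 for Atp2a3. With 1 array left out, Atp2a2 ran from 1.47 to 1.76.

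Results with Stellate/Basket P56 changed most; apart from settings that use fewer arrays or another threshold, the cause was not tested. In Stellate/Basket arrays between P14 and P56, Ryr2 became called at -1.36 with a filter at log2 6 or with all 42 columns, at -1.40 after quantile normalization and at -1.42 with Xist as a covariate. Array weights gave Ryr1 2.06, not called, and a fit of only the groups compared gave Ryr1 1.96, Casq2 1.94 and Atp2a3 2.31, none called. With P35 as the last age the change was -0.021 for Ryr1, -0.67 for its probe set 1457347_at, -0.36 for Casq2, -0.57 for Atp2a2 and 0.41 for Atp2a3. The same setting gave 0.11 for Ryr1 and 0.50 for 1457347_at in the difference of the changes, -0.030 for the Ryr2 cell type difference, and -1.42 for Ryr2 (called) and 0.080 for Ryr3 in the Purkinje change. Leaving out 1 array, the Stellate/Basket change ran from 0.50 to 3.43 for Ryr1, -3.07 to 0.35 for Ryr2, 0.50 to 3.38 for Casq2 and -0.50 to 0.94 for Atp2a2, and the Ryr2 cell type difference from -0.14 to 0.54. Without a minimum difference, Ryr3 was called at -0.24 between cell types and 0.53 in Stellate/Basket arrays. With a covariate for every array's 90th percentile, chosen after seeing the data, Ryr2 was -0.33 between cell types and -1.13 (called) from P3 to P56.

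The mean of a gene's probe sets gave Atp2a2 0.98 between cell types and 0.97 from P3 to P56, under the minimum, and Ryr3 -0.024 in Stellate/Basket arrays. For Ryr2 it gave -0.86 from P7 to P14 in Purkinje arrays, also under the minimum and not called. Single other probe sets gave, between cell types and from P3 to P56, 0.11 and 0.16 (1437797_at) and 0.15 and 0.66 (1427251_at) for Atp2a2, 0.61 and 0.48 (1450124_a_at) for Atp2a3, and 0.10 and 0.071 (1452533_at) for Ryr3; 1427250_at gave 0.76 from P3 to P56 and 1427427_at -2.24, called. At P28 the Atp2a2 difference was -0.50 (1437797_at) and -0.067 (1427251_at), and at P56 -0.40 (1437797_at) and, for Atp2a3, -0.19 (1450124_a_at). In the Stellate/Basket change 1450124_a_at gave 0.62, 1427427_at -0.65 and 1421126_at of Ryr2 0.53. 1421126_at gave 0.18 from P3 to P56, 0.12 from P7 to P14 and -0.53 in the difference of the changes.

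The Ryr1 difference of the P14 to P56 changes was also not called with array weights (-1.92), median centring (-1.61), Xist as a covariate (-1.60) or an adjusted p under 0.01, nor that of Ryr2 with array weights (2.11). At P56 the cell types differed in 4 genes, but in 1 with the 90th percentile covariate and in 2 with the mean of probe sets. A replicate block changed 1 call, the Ryr1 difference of the P14 to P56 changes, at -1.65 (limma adjusted p = 0.058). Correlations of same-numbered arrays ran from -0.12 to 0.23. Arrays carry no detection calls, so signal over background near the floor is unknown.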
